A study of Mus musculus with 4 samples.

Results

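Microglia from PBS-treated control mice were compared between postnatal day 70 (P70) and postnatal day 30 (P30). Members were chosen by their labels: the control array at P30 and the control array at P70, which are 2 of the 4 arrays of the study. All arrays were of microglia isolated from the whole brain of male C57BL/6J mice 1 day after an intranasal challenge, from mice treated with PBS (control) or with OVA (allergy). The isolates of 4 samples were pooled in each group and put on 1 array, so no group had replicates, no test was made, and the number of arrays limits the precision of every difference. The sources used here do not say how the cells were isolated. Age cannot be told apart from the pool and the array used at each age. The OVA arrays at P30 and P70 share no array with the PBS pair and are given beside it.

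Microglia are the resident macrophages of the brain. They depend on signalling through the receptor Csf1r, hold their identity under TGF-beta and the transcription factor Sall1, and mature during the first weeks after birth, when they also take part in the pruning of synapses. Neutrophils and monocytes are blood leukocytes that arise in the bone marrow. Their granule proteins and surface markers serve to recognise them in a bulk isolate of brain leukocytes.

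Levels are log2 of the deposited intensity of a gene's brightest probe set. Of 17617 genes with a usable name, 8809 had a mean level over the 4 arrays of 7.18 or more, the floor used here, and are termed expressed. The 38 gene lists name 1184 symbols, of which 962 were found and 623 expressed. The difference as deposited grew with brightness: its median was 0.03 between levels 7 and 8, 0.53 between 9 and 10, and 1.00 between 12 and 14, and 0.26 over all expressed genes. A smooth curve along the level was therefore subtracted. A difference below is this centred log2 difference, P70 minus P30, unless it is called as deposited, and a positive value is higher at P70. At least 1.5-fold higher at P70 stood 1020 genes, which is 11.6% of those expressed, and 766 genes (8.7%) stood at least 1.5-fold lower. Every PBS count for a list or family below is to be set against these shares. The share of higher genes among those past 1.5-fold was 57.1% with the curve, 90.9% as deposited (2562 genes or 29.1% higher, 257 or 2.92% lower), 72.2% when only the median was subtracted and 52.9% after quantile normalization. Among the 766 lower genes, 115 had a positive difference as deposited, whereas all 1020 higher genes were higher as deposited too. The genes nearest the threshold were Gtf2a2 at 0.59 inside and Jtb at 0.58 outside on the higher side, and Rnf186 at -0.59 and Bglap at -0.58 on the lower side. Of the 25 genes between levels 18 and 20, 0 stood higher and 10 lower after centring, while their median as deposited was 0.76; 5 of the 25 are among the genes named next. A set of 8 genes (C1qb, Cst3, Cx3cr1, Fcrls, Rps23-ps, Selplg, Serinc3 and mt-Rnr1) differed by 0.05 as deposited, which is the difference between the highest values of the arrays, 19.88 at P30 and 19.93 at P70. Some lie well below these highest values, such as Fcrls at 13.20 and C1qb at 15.61 at P30, and what gave them this common difference was not tested. The differences of all 8 are not read as differences of the genes.

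**Figure D1:**
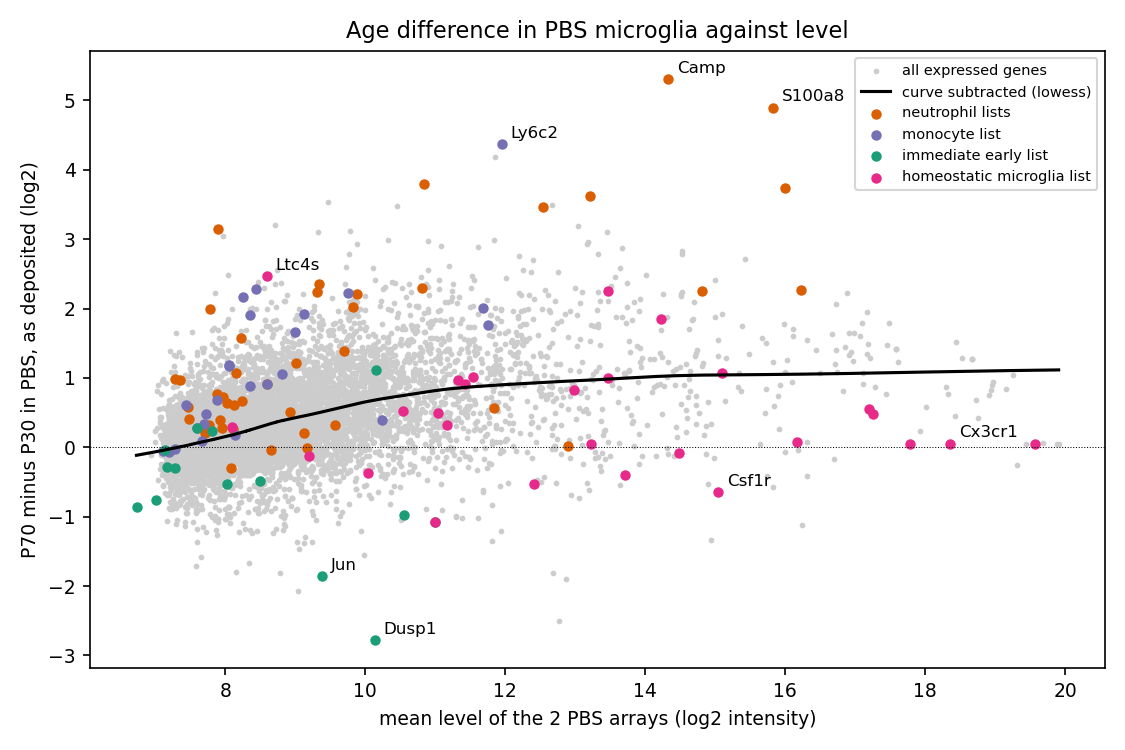
Each point is an expressed gene, placed by its mean level over the 2 PBS arrays (x axis, log2 intensity) and its P70 minus P30 difference as deposited (y axis, log2), with the subtracted curve in black and 4 gene lists in colour. The curve rises with the level, Camp and S100a8 lie far above it, and Dusp1, Jun and Csf1r lie below it.

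Both PBS arrays carried the defining markers of microglia. Of the 10 markers looked for, 9 were found and all 9 lay above the floor in both arrays, with a mean level of 13.64 at P30 and 14.08 at P70. The range ran from 9.26 for Tmem119 to 18.33 for Cx3cr1 at P30, and from 9.14 to 18.39 for the same genes at P70. All 9 neutrophil markers also lay above the floor at both ages, with a mean level of 11.20 at P30 and 14.25 at P70. Of 6 monocyte markers 5 were expressed, with a mean over the 6 of 7.85 and 9.56. Markers of neurons, astrocytes, erythroid cells and mast cells or eosinophils had no expressed member in these arrays. Of the 4 erythroid markers only 2 were found, Alas2 and Slc4a1. The globin genes Hba-a1 and Hbb-bs were not among the genes with a usable name. Of the 5 markers of neutrophil progenitors (Mpo, Elane, Prtn3, Ctsg and Ms4a3) none was expressed, and the highest of their values was 6.67 at P30 and 6.96 at P70. In pooled bulk RNA a larger number of cells of a type and more RNA per cell cannot be told apart.

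Genes of neutrophil granules were higher at P70, with the largest median difference among the lists of at least 5 expressed members. Camp, which encodes the antimicrobial peptide cathelicidin, and S100a8, a subunit of calprotectin, led all expressed genes. Of the 29 members found of the secondary and tertiary granule list 19 were expressed, with a median of 1.21. Of these 19, 13 stood at least 1.5-fold higher at P70 and 0 lower, against 11.6% and 8.7% of all expressed genes. Over all 29, those under the floor included, the mean level was 8.03 at P30 and 9.26 at P70. These granules are filled at the later stages of neutrophil maturation in the marrow.

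Camp had a level of 11.67 at P30 and 16.99 at P70 in PBS, a difference of 4.28 or 19.5-fold. In the OVA arrays it stood at 10.36 and 17.13. Camp was thus the highest of all genes at P70 against P30 in the control mice, and the P70 values of both treatments lay above both P30 values. S100a8 went from 13.38 at P30 to 18.28 at P70 (3.85, 14.4-fold). Its partner subunit S100a9 went from 14.13 to 17.86 (2.68, 6.41-fold). The product of this pair binds calcium and zinc and is released by activated neutrophils. Mmp8, the neutrophil collagenase, had 8.95 at P30 and 12.74 at P70 (3.0, 7.98-fold). Ngp, neutrophilic granule protein, was already bright at P30 with 15.08 and had 17.35 at P70 (1.21). Ltf, which encodes the iron-binding lactoferrin, had 9.66 and 11.96 (1.52). All of these were higher at P70, by amounts between 2.32-fold for Ngp and 19.5-fold for Camp. Lcn2, which binds bacterial siderophores, had 8.17 at P30 and 10.52 at P70 (1.85). Anxa1, an annexin abundant in neutrophils, had 8.19 and 10.42 (1.74). Lyz2, lysozyme, had 11.41 and 15.02 (2.65), and it is made by macrophages and neutrophils alike and has a near-identical copy, Lyz1.

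The list of mature neutrophil genes differed less evenly. Of its 24 expressed members 10 stood higher and 1 lower, against 11.6% and 8.7% of all expressed genes, with a median of 0.44. Retnlg, a resistin-like protein of neutrophils, had 10.81 at P30 and 14.27 at P70 (2.53, 5.78-fold). Ifitm6 had 6.33 and 9.48 (3.02), and the lectin receptor gene Clec4d had 6.79 and 8.78 (1.89). The P30 values of Ifitm6 and Clec4d lay under the floor, so the size of their differences is uncertain. Ly6g, the surface marker used to sort neutrophils, had 8.41 at P30 and 9.62 at P70 (0.78). Cxcr2, the chemokine receptor that mobilises mature neutrophils, had 8.66 and 9.17 and did not reach 1.5-fold (0.10). Csf3r, the receptor for G-CSF, was the 1 lower member, with 12.88 and 12.90, a centred difference of -0.93 and a difference as deposited of 0.02. Within the neutrophil markers the granule and calprotectin genes therefore differed most, and the receptor gene Cxcr2 did not reach 1.5-fold. Csf3r is a member of this list but not a defining marker, and it had 12.76 and 13.08 in the OVA pair. Which cells gave its signal was not tested. The primary granule list, of proteins made at the earliest stage, had 1 expressed member among the 6 found: Serpinb1a, a protease inhibitor, with 7.67 at P30 and 8.29 at P70 (0.47).

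The sequences before the starts of S100a8 and Mmp8 are shown because both genes are among the 7 highest and both hold the same 8-base motif of the myeloid factor PU.1. They are the 250 bases before the transcription start from RefSeq on GRCm38.p6, written 5' to 3' on the strand of the gene: S100a8 at chr3:90668821-90669070, plus strand, and Mmp8 at chr9:7558179-7558428, plus strand. Capitals mark the motif GAGGAAGT, here on the opposite strand and so read as ACTTCCTC, and in S100a8 also TATAAA.
S100a8: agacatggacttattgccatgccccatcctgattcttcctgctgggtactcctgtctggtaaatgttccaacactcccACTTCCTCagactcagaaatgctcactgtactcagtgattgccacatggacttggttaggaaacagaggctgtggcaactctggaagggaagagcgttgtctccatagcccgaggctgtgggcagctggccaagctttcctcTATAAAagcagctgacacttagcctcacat
Mmp8: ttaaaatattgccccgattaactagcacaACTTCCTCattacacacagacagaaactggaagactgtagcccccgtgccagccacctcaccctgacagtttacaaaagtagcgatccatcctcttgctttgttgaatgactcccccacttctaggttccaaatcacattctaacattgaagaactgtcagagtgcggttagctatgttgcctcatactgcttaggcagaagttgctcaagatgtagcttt
The PU.1 motif lay 172 to 165 bases before the start of S100a8 and 221 to 214 bases before that of Mmp8, and the TATA motif of S100a8 lay 30 to 25 bases before its start. With both strands searched, GAGGAAGT lay before 4 of the 35 expressed neutrophil list genes with a window of this length (Mmp8, Itgb2l, Ly6g and S100a8). It lay before 2.79% of all 27025 genes with a window. TATAAA lay before 7 of the 35 and before 14.3% of all genes with a window. A match describes the letters and is not a bound site.

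Monocyte genes were higher at P70 as well. Of 25 expressed members of the monocyte list 13 stood at least 1.5-fold higher and 0 lower, with a median of 0.64. Among all expressed genes 11.6% stood higher and 8.7% lower. Over all 32 members found the mean level was 7.74 at P30 and 8.72 at P70. Ly6c2, the surface antigen of inflammatory monocytes, had 9.78 at P30 and 14.14 at P70 (3.47, 11.05-fold). Its near-identical neighbour Ly6c1, which endothelial cells express, had 10.04 and 10.43 (-0.31 centred, 0.39 as deposited). Probe sets of such a pair may share signal, so both are uncertain. S100a4, a calcium-binding protein, had 7.30 at P30 and 9.58 at P70 (2.01). Crip1 had 7.17 and 9.34 (1.94), with its P30 value just under the floor. Plac8 had 7.40 and 9.30 (1.65). Ccr2, the chemokine receptor by which monocytes leave the marrow, had 8.15 and 9.82 (1.24). Ms4a4c, a membrane protein of these cells, had 8.17 and 10.08 (1.46). In the OVA pair Ccr2 was at 1.53, S100a4 at 3.06 and Ly6c2 at 3.05, and Ly6c1 at -0.48. F13a1, coagulation factor XIII, had 7.53 and 7.86 (0.25). Vcan, which encodes versican, lay under the floor at both ages with 6.05 and 6.18.

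**Figure D2:**
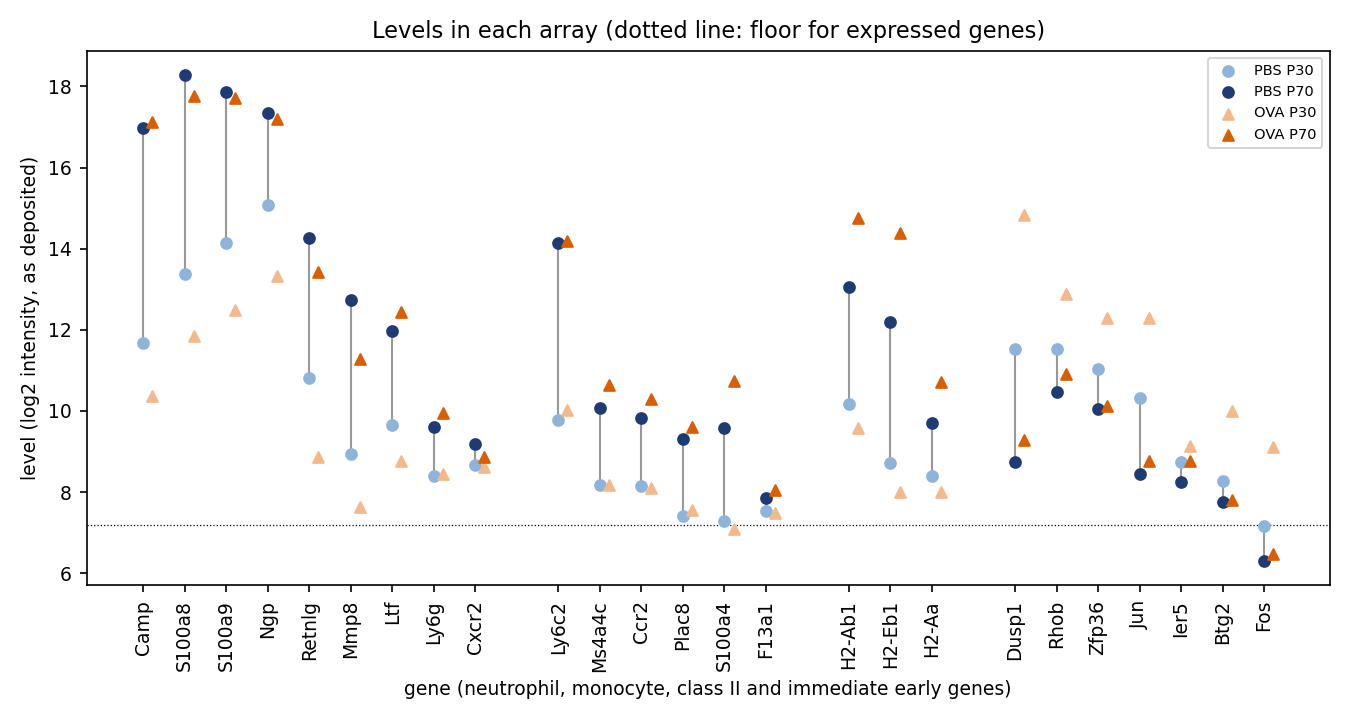
Levels (y axis, log2 intensity as deposited) of neutrophil, monocyte, MHC class II and immediate early genes in each of the 4 arrays; circles are PBS, triangles OVA, pale P30 and dark P70, and a grey line joins the PBS ages. Only chosen members are drawn. In PBS the dark circle is above the pale one for Camp (16.99 over 11.67) and the other neutrophil, monocyte and class II genes drawn. It is below the pale one for Dusp1 (8.75 under 11.52) and the other immediate early genes drawn. Of the 14 expressed immediate early genes 3 had a centred difference above 0, and Klf6 among them is not drawn.

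Immediate early genes, which are transcribed within minutes of many kinds of stimulus, were lower at P70. Of 14 expressed members 8 stood at least 1.5-fold lower and 0 higher, against 8.7% lower among all expressed genes, and the median was -0.69. The median was below 0 on every scale tried, at -0.51 as deposited, and the mean level over all 23 members found was 7.85 at P30 and 7.44 at P70. Dusp1, a phosphatase that switches off MAP kinases, had 11.52 at P30 and 8.75 at P70 and was the lowest of all genes, at -3.45 or 10.96-fold. The AP-1 subunit gene Jun had 10.31 and 8.46 (-2.36, 5.15-fold). Rhob, a small GTPase, had 11.53 and 10.46 (-1.89). Zfp36, whose product destabilises cytokine mRNAs, had 11.03 and 10.06 (-1.72). These bright members were lower at P70 with no centring as well. Fos, the AP-1 partner of Jun, had 7.16 at P30 and 6.30 at P70 (-0.74), with both values under the floor. Egr1 had 7.39 and, under the floor, 6.63 (-0.69), with a PBS mean of 7.01. Expressed genes were chosen by their mean over the PBS and OVA arrays together. Fos and Egr1, with PBS means under the floor, therefore entered the 8 lower members only through their OVA levels. Klf6, a zinc finger factor, differed the other way with 9.60 and 10.70 (0.42). In the OVA pair, where 13.3% of all expressed genes stood higher and 10.8% lower, the same list had 10 lower and 0 higher members and a median of -1.57, and Dusp1 had 14.83 at P30 and 9.29 at P70 (-6.65). Genes of other lists were low too. The chemokine gene Ccl3 had 12.11 and 11.09 (-1.90). Sgk1, a kinase induced by glucocorticoids, had 11.31 and 10.42 (-1.69).

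Among glucocorticoid-responsive genes there was no common direction. Of 12 expressed members 2 stood higher, Anxa1 and the metallothionein Mt1 (7.52 at P30 and 8.83 at P70, 1.11), and 3 lower, with a median of 0.12.

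The window before the start of Dusp1 is shown because it was the lowest gene and holds the full cAMP response element, TGACGTCA, in capitals. It is on GRCm38.p6 at chr17:26508473-26508722, minus strand.
Dusp1: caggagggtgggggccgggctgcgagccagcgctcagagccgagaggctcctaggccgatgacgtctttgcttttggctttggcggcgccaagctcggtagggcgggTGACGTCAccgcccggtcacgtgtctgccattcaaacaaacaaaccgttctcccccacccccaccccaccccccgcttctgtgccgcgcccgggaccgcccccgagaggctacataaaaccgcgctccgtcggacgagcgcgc
The element, which reads the same on both strands, lay 143 to 136 bases before the start. Among the 11 expressed immediate early genes with a window, 2 held it, Dusp1 and Btg2, against 1.77% of all genes with a window. Btg2 had 8.28 at P30 and 7.75 at P70 (-0.69).

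The genes that define resting microglia depended on the scaling. Of 27 expressed members of the homeostatic list, 3 stood higher and 13 lower after centring, with a median of -0.52. As deposited the median was 0.33, with 9 members at least 1.5-fold higher and 2 lower, and after subtraction of the median alone it was 0.07. The members lie high on the level axis, where the subtracted shift is largest, and 4 of the 13 lower members (Cst3, Cx3cr1, Selplg and Fcrls) are among those with the difference of the arrays' highest values, which is not read. A direction for the list as a whole is therefore not given.

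The members at least 1.5-fold lower both as deposited and centred were 2, Rhob and Csf1r. Csf1r, the receptor for the survival factors Csf1 and Il34, had 15.37 at P30 and 14.72 at P70, -0.65 as deposited and -1.69 centred. Slco2b1, an organic anion transporter, had 12.67 and 12.14, -0.52 as deposited and -1.45 centred. On the higher side, Ltc4s, the leukotriene C4 synthase, had 7.36 and 9.83 (2.14, 4.42-fold). P2ry12, the ADP receptor that directs microglial processes to injury, had 13.30 and 15.14 (0.82). P2ry13, a related nucleotide receptor, had 17.02 and 17.49, which is 0.47 as deposited and -0.60 centred. P2ry12 was thus higher on every scale. P2ry13 turned with the scale, being at 0.22 when only the median was subtracted, so no split between these receptors is read. Siglech, a lectin of microglia, had 16.93 and 17.47 (-0.52). Tmem119 had 9.26 and 9.14 (-0.59). The identity factor Sall1 had 12.57 and 13.40 (-0.13), and Gpr34, a lipid receptor, 12.97 and 13.96 (0.02), so neither reached 1.5-fold after centring. In the OVA pair Csf1r had 15.10 at P30 and 15.12 at P70, which is 0.02 as deposited and -1.15 centred. P2ry12 was there at 1.18 and Ltc4s at 2.15.

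**Figure D3:**
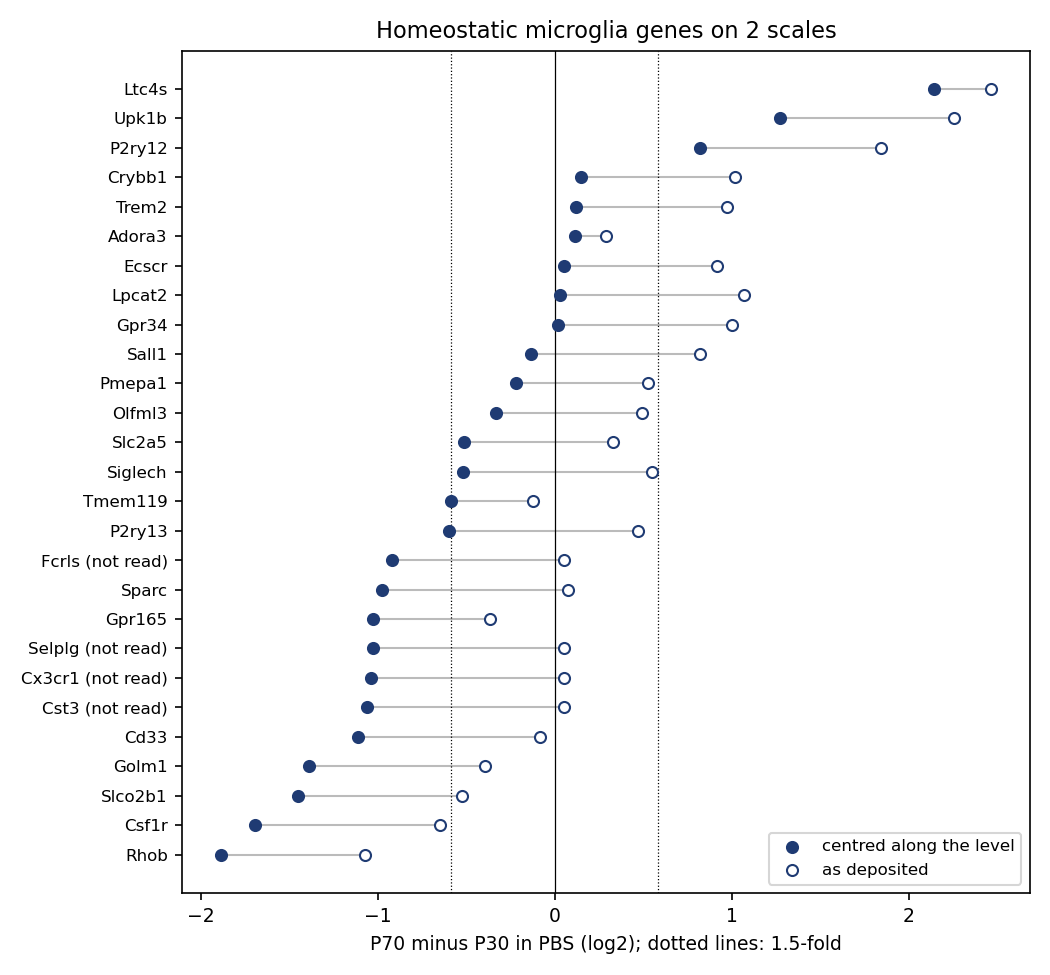
P70 minus P30 in PBS (x axis, log2) of the 27 expressed homeostatic microglia genes, filled points centred along the level and open points as deposited; dotted lines mark 1.5-fold and "not read" marks the 4 genes that differ by as much as the highest values of the arrays. The open points have a median of 0.33 and the filled ones of -0.52, and Rhob and Csf1r lie past -0.58 on both scales.

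Signalling genes downstream of Csf1r and TGF-beta were lower after centring and near 0 as deposited. Of 19 expressed members 1 stood higher and 7 lower, with a median of -0.44 centred and 0.02 as deposited. Inpp5d, the inositol phosphatase SHIP1, had 12.69 at P30 and 12.22 at P70 (-1.40). Tgfbr2, a TGF-beta receptor, had 10.36 and 10.07 (-0.99). Both were also lower as deposited in PBS, at -0.47 and -0.29. In the OVA pair as deposited Inpp5d was at -0.04 and Tgfbr2 at 0.28. Tyrobp, the adaptor of Trem2 and other receptors, was the 1 higher member with 16.59 and 18.38 (0.72). Of 24 expressed transcription factors of microglia 0 stood higher and 4 lower (Cebpa, Etv5, Egr1 and Stat3), and the median was -0.26 centred and 0.13 as deposited. Egr1, whose PBS mean lay under the floor, entered only through its OVA levels. Cebpa, a myeloid factor, had 13.59 and 13.65 and turned from 0.06 as deposited to -0.93 centred. Mef2a had 14.81 and 15.48 (-0.38), and Maf had 15.47 and 15.96 (-0.55).

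Synapse and neurotransmitter sensing genes had 1 higher and 5 lower of 14 expressed members, with a median of -0.27 centred and 0.17 as deposited. P2ry6, the UDP receptor that triggers phagocytosis, had 11.32 at P30 and 11.21 at P70 (-0.96). Hvcn1, a proton channel, had 8.73 and 8.16 (-0.85). Entpd1, which degrades extracellular ATP, had 12.64 and 12.96 and turned from 0.32 as deposited to -0.63 centred.

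Within the MHC class II pathway, RNA of the chain genes H2-Eb1, H2-Ab1 and H2-Aa was higher at P70. Presentation of antigen was not measured. Of 13 expressed members of the pathway 4 stood higher and 0 lower, against 11.6% and 8.7% of all expressed genes, with a median of 0.31. H2-Eb1, a class II beta chain, had 8.72 at P30 and 12.19 at P70 (2.74, 6.68-fold). H2-Ab1, another beta chain, had 10.17 and 13.05 (2.01). H2-Aa, the alpha chain that pairs with it, had 8.40 and 9.69 (0.86). Ifi30, a lysosomal thiol reductase that opens antigens for loading, had 11.13 and 13.32 (1.28). Ctss, the protease that trims the invariant chain, had 18.38 and 19.06 and did not reach 1.5-fold (-0.42). The other 8 members lay between -0.20 and 0.49. In the OVA pair the chains were further apart: H2-Eb1 had 8.01 and 14.40 (5.33) and H2-Ab1 was at 4.06. The monocyte and neutrophil markers above were higher at P70 too, and their part in the class II values was not tested.

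The window before H2-Eb1 is shown because it was the highest class II gene and holds the Y box of class II promoters, CTGATTGG, in capitals. It is on GRCm38.p6 at chr17:34305617-34305866, plus strand.
H2-Eb1: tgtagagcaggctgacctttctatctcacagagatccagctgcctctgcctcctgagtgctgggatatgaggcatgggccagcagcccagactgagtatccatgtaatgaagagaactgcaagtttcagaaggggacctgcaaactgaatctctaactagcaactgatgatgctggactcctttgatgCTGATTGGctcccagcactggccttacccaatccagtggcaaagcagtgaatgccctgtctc
The motif lay 62 to 55 bases before the start. It was found on either strand in 3 of 11 expressed pathway members with a window (H2-Aa, H2-Eb1 and H2-Oa) and in 4.43% of all genes with a window.

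MHC class I genes had no common direction. Of 17 expressed members 4 stood higher and 3 lower, with a median of 0.25. B2m, the light chain common to class I molecules, had 15.77 at P30 and 17.996 at P70 (1.16), and Psmb10, an immunoproteasome subunit, had 8.92 and 10.92 (1.36). The 3 lower members encode chaperones of the endoplasmic reticulum, and their differences as deposited were small. Calreticulin, Calr, had 12.45 and 12.30 (-0.15 as deposited, -1.08 centred), and Pdia3, which forms disulphides in the loading complex, had 13.36 and 13.21 (-0.15, -1.12). The other chaperone, Canx, stood at -0.82 centred but at 0.13 as deposited.

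Among receptors that sense microbes more were higher than lower. Of 24 expressed Toll-like receptors, their partners and C-type lectins, 9 stood higher, 1 lower and 14 between, with a median of 0.33. Among all expressed genes the shares were 11.6% higher and 8.7% lower. Ly96, the MD-2 protein that lets Tlr4 bind endotoxin, had 8.22 at P30 and 11.33 at P70 (2.51, 5.69-fold). Clec5a, a lectin of myeloid cells, had 10.15 and 11.99 (1.01), and Clec4b1 had 7.91 and 9.18 (0.96). The brightest members differed little, with Tlr7, an RNA sensor, at 15.74 and 17.14 (0.34) and Tlr3 at 11.74 and 12.81 (0.15).

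Complement and phagocytic receptors had 3 higher and 11 lower of 37 expressed members, with a median of -0.21 centred and 0.28 as deposited. The 11 include 2 genes whose difference is not read, C1qb being 1 of them. Itgam, the alpha chain of complement receptor CR3, had 13.51 at P30 and 12.89 at P70, which is -0.62 as deposited and -1.59 centred. Sirpa, an inhibitory receptor for Cd47, had 15.94 and 15.52 (-1.46). Itgb5, an integrin of apoptotic cell uptake, had 12.85 and 12.75 (-1.04). These 3 were lower on both scales in PBS. In the OVA pair they were at 0.01, 0.05 and 0.23 as deposited and at -1.15, -1.10 and -0.92 centred. Fcgr4, an IgG receptor of monocytes and neutrophils, went the other way with 7.53 and 9.88 (1.99). C1qb, a subunit of C1q, had 15.61 and 15.66, a difference that is not read. Among chemokine receptors and integrins 2 of 22 expressed members stood higher, Ccr2 and Cxcr4, and 7 lower, with a median of -0.20 centred and 0.05 as deposited. The 7 include 2 genes whose difference is not read. Cxcr4, the receptor that retains leukocytes in the marrow, had 6.45, under the floor, at P30 and 9.50 at P70 (2.90), and 6.46 and 7.61 in the OVA pair.

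Cytokine genes had no common direction. Of 28 expressed members of the cytokine and NF-kB list 5 stood higher and 2 lower, with a median of 0.09. The shares over all expressed genes were 11.6% and 8.7%. Il6 had 6.79, under the floor, at P30 and 9.28 at P70 (2.32). Casp1, which cleaves interleukin 1 beta, had 11.51 and 13.71 (1.25), and the chemokine gene Ccl12 had 7.88 and 9.18 (0.99). Ccl3, given above, was lower by the largest amount in the list. Interferon-response genes had 7 higher and 1 lower of 28 expressed members and a median of 0.08. Ifitm3, which restricts viral entry, had 8.64 and 10.87 (1.62), Ifi207 had 8.05 and 9.70 (1.25), and the RNA sensor Ifih1 had 7.56 and 8.80 (1.04). Isg15, a ubiquitin-like protein, was the 1 lower member with 7.67 and 6.79, the latter under the floor (-0.87).

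Genes of postnatal and disease-associated microglia, a programme of phagocytic states, had 7 higher and 4 lower of 26 expressed members, with a median of 0.12. Lgals1, galectin 1, had 7.10, under the floor, at P30 and 10.31 at P70 (2.85), a size that is uncertain, and Vim, vimentin, had 7.65 and 9.48 (1.52); both are made by many leukocytes. Ctsb, a cathepsin, was bright at 16.03 and 15.96 and stood at -1.11 centred and -0.06 as deposited. Apoe, a lipid carrier, had 10.80 and 11.04 (-0.57). Cell cycle genes were near the floor. Of 21 expressed members 4 stood higher and 0 lower, against 11.6% and 8.7% of all expressed genes, with a median of 0.32. Ccnb2, 1 of the 4, had 6.78 and 7.33 (0.60). Its PBS mean of 7.06 lay under the floor, so it entered only through its OVA levels. Mki67, a proliferation marker, had 7.13, under the floor, and 8.56 (1.32), and Stmn1 had 8.22 and 9.51 (0.90).

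Genes of the macrophages of the brain borders gave no common direction in PBS. Of 19 expressed members 3 stood higher and 1 lower, with a median of -0.19 centred and 0.14 as deposited, against 9 higher and a median of 0.47 in the OVA pair. Cd209a, a lectin also found on monocyte-derived dendritic cells, had 8.06 at P30 and 9.91 at P70 (1.43). The defining marker Mrc1 had 8.76 and 8.68 (-0.44), and Pf4 had 8.85 and 9.51 (0.20). Ms4a7 had 7.91 and 8.82 (0.65). The difference between the PBS and OVA values was not tested. The remaining cell types had few expressed genes. Of T and NK cell genes 7 of the 31 found were expressed, with 2 higher (Klrd1, 8.17 and 9.83, and Gzma, 6.69, under the floor, and 7.62) and 2 lower (Klrb1c and Lat). Gzma had a PBS mean of 7.15, under the floor, and entered only through its OVA levels. Of B cell genes 8 of 24 were expressed, and 1 stood higher: Blnk, an adaptor of B cell receptor signalling, with 11.46 and 13.02 (0.64). Neuron genes had 1 expressed member of 26 found, Camk2a, with 7.93 and 7.81.

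**Figure D4:**
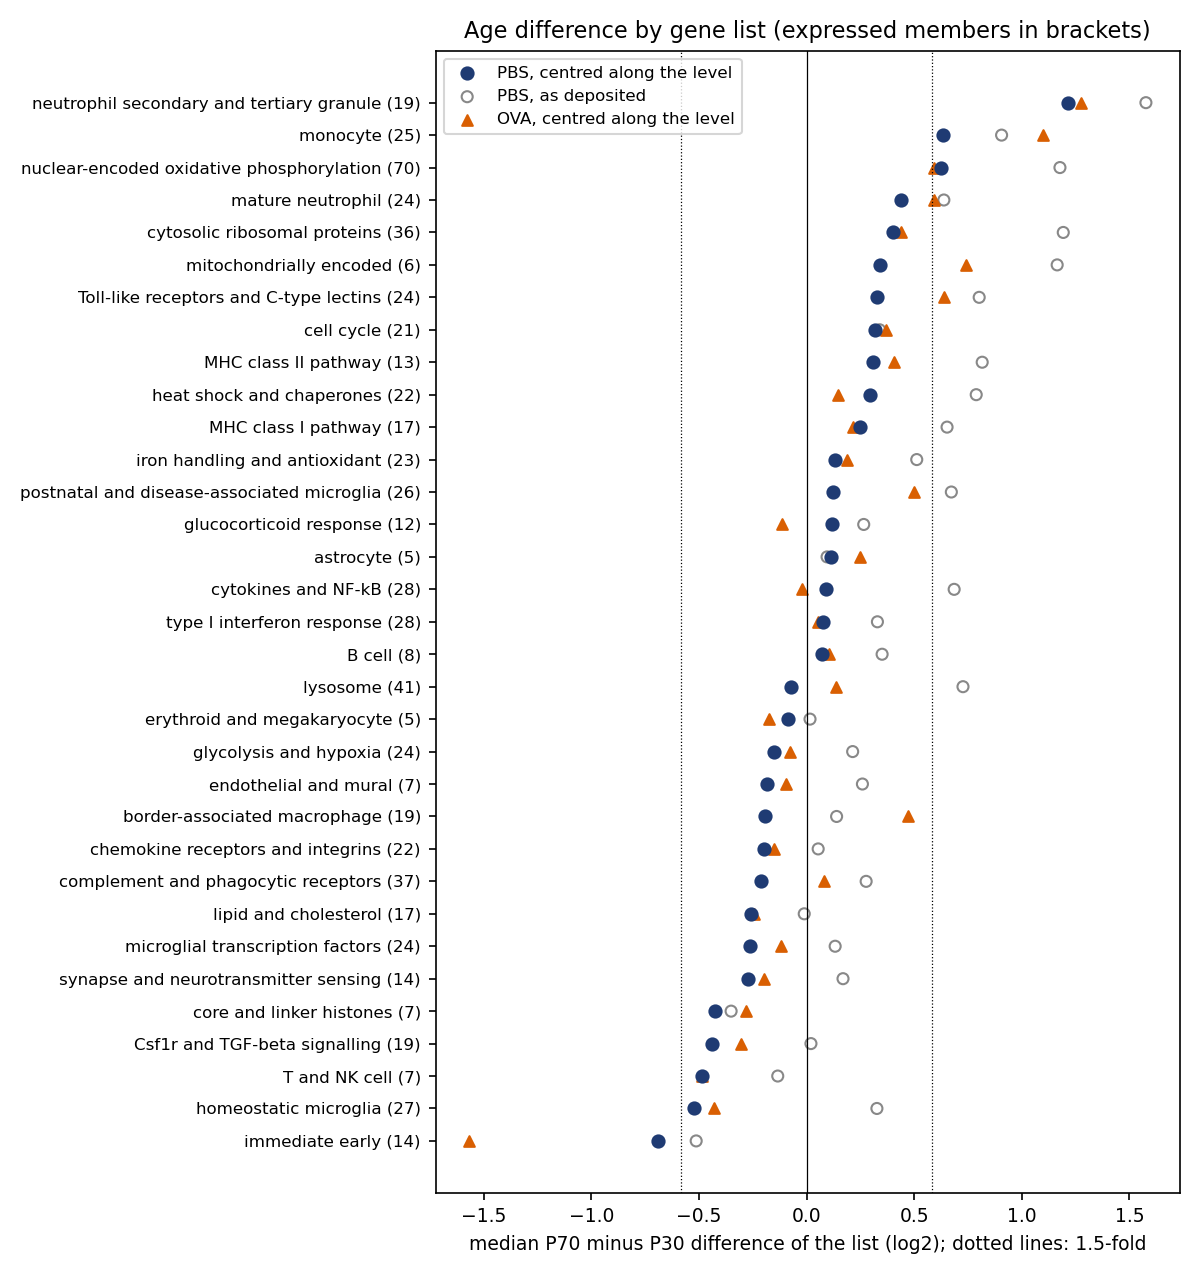
Median P70 minus P30 difference (x axis, log2) of each gene list with at least 5 expressed members, filled circles PBS centred, open circles PBS as deposited, triangles OVA centred; the number of expressed members is in brackets. The neutrophil granule list is highest in PBS at 1.21 and the immediate early list lowest at -0.69, and the homeostatic list lies on opposite sides of 0 as deposited (0.33) and centred (-0.52).

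Many genes of oxidative phosphorylation were higher at P70. Of 70 expressed nuclear-encoded members 36 stood at least 1.5-fold higher and 1 lower, against 11.6% and 8.7% of all expressed genes, and 66 had a difference above 0. The median was 0.62 centred, 1.18 as deposited and 0.59 in the OVA pair. Cox7a2, a subunit of cytochrome c oxidase, had 11.71 at P30 and 14.64 at P70 (1.96, 3.89-fold). Uqcr10 of complex III had 7.79 and 9.98 (1.79). Cox6b1, a further oxidase subunit, had 9.23 and 11.60 (1.64), and Ndufb3 of complex I had 9.13 and 11.44 (1.61). These 4 largest differences belong to subunits of complexes I, III and IV. Cycs, cytochrome c, had 12.34 and 14.11 (0.80). The 1 lower gene, the ATP synthase subunit gene Atp5l, had 14.77 and 15.11 and turned from 0.34 as deposited to -0.70 centred. Of 6 mitochondrially encoded genes with a usable probe set, ND3 (9.77 and 13.95, 3.29), ND2 (10.98 and 13.53, 1.63) and COX2 (9.54 and 11.78, 1.47) stood higher. ND6 stood at least 1.5-fold lower only after centring, since as deposited 0 of the 6 did. COX1 and mt-Rnr1 had as-deposited differences of 0.06 and 0.05, near or equal to that of the arrays' highest values, and are not read. Copies of mitochondrial sequence in the nuclear genome make these probe sets uncertain.

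Cytosolic ribosomal proteins had 15 higher and 0 lower of 36 expressed members, against 11.6% and 8.7% of all expressed genes, with a median of 0.40. Rpl27 had 11.90 at P30 and 15.002 at P70 (2.12), and Fau, which encodes a fusion that releases the ribosomal protein eS30, had 9.62 and 12.17 (1.75). Its pseudogene copy Fau-ps2 had 10.08 and 8.0 (-2.51), opposite to Fau. Ribosomal genes have many near-identical pseudogenes and are named as uncertain. Rn28s1, the 28S ribosomal RNA, had 13.59 and 11.77 (-2.76), and its OVA values of 13.09 and 13.56 gave -0.68.

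Short genes stood higher than long ones. Among 1299 protein-coding genes with a level of 10 or more, the 325 genes with the shortest genomic span (median 4.17 kb) had a median difference of 0.27, and the next 3 groups in order of span had 0.13, -0.08 and -0.24, the last with a median span of 87.5 kb. Spearman's rho of span with difference was -0.30 across these genes and -0.09 across all 8303 expressed protein-coding genes; genes are not independent replicates. The median span was 3.81 kb in the ribosomal list, 7.21 kb in the oxidative phosphorylation list and 5.75 kb in the neutrophil granule list, but 61.7 kb in the Csf1r and TGF-beta list. The immediate early list, at 3.57 kb, was short and low. The part of span in these results was not tested.

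Lysosomal genes had no common direction. Of 41 expressed members 6 stood higher and 11 lower, with a median of -0.07 centred and 0.73 as deposited. Atp6v0e and Atp6v1d, subunits of the vacuolar ATPase that acidifies lysosomes, had 9.69 at P30 and 12.04 at P70 (1.56), and 9.74 and 11.77 (1.26). All 6 higher members were subunits of this pump: the others were Atp6v1c1, Atp6v1e1, Atp6v1f and Atp6v1g1. Psap, the precursor of saposins, had 16.52 and 16.11 (-1.47), and Laptm5 had 11.39 and 11.09 (-1.14). Both were lower as deposited too in PBS. In the OVA pair as deposited Psap was at 0.07 and Laptm5 at -0.18. Lgmn, the protease legumain, had 17.82 and 18.04 and turned from 0.23 as deposited to -0.85 centred. Another subunit, Atp6v0a1, and the pump's accessory protein gene Atp6ap1 stood lower, at -0.65 and -1.11.

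Lipid and cholesterol genes had 0 higher and 4 lower of 17 expressed members, with a median of -0.26 centred and -0.01 as deposited. Lrp1, a large receptor for apolipoprotein E, had 11.79 at P30 and 10.81 at P70 (-1.84), Mylip, which degrades lipoprotein receptors, had 13.54 and 13.20 (-1.32), and Abca1, a cholesterol exporter, had 10.99 and 10.84 (-0.96). All 3 were lower as deposited in PBS. In the OVA pair as deposited Lrp1 was at -0.45, but Mylip was at 0.52 and Abca1 at 0.37. Glycolysis and hypoxia genes had 1 higher and 3 lower of 24, with a median of -0.15 centred and 0.21 as deposited. Gapdh, often used as a reference gene, had 14.21 and 14.09 (-1.14). Iron and antioxidant genes had 7 higher and 1 lower of 23, with a median of 0.13; Sod1, superoxide dismutase, had 12.80 and 14.89 (1.09), and Gpx1, a glutathione peroxidase, had 10.65 and 12.57 (1.05). The 2 highest members of that list were the neutrophil genes Lcn2 and Ltf. Chaperones had 5 higher and 2 lower of 22, with a median of 0.30. Dnajb11 of the endoplasmic reticulum had 8.48 and 10.21 (1.23) and the chaperonin subunit gene Cct4 had 8.10 and 9.37 (0.91), whereas Hspa5, which encodes BiP, had 10.84 and 10.49 (-1.11). Of 7 expressed histone genes 2 stood higher and 3 lower; the linker histone gene H1f2 had 10.44 and 9.71 (-1.40) and H2bc21 had 7.65 and 9.48 (1.52), and these genes belong to a family of near-identical copies.

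Multi-copy families with no known role in microglia held many of the lowest values. Sly, a multi-copy gene of the Y chromosome expressed in testis, had 14.02 at P30 and 11.52 at P70 (-3.45). Orly, on the Y chromosome too, had 12.49 and 11.14 (-2.25). Of expressed Speer genes, expressed in testis, 10 of 11 were lower, of Pramel genes 9 of 10, of major urinary protein (Mup) genes 17 of 19 and of secretoglobin (Scgb) genes 13 of 16, with medians of -1.27, -1.37, -1.21 and -0.94; 2 of the Mup genes hold the same values and count as 1 measurement. When the classes left out of the comparison were kept, 274 of 448 olfactory and vomeronasal receptors above the floor were lower, as were 106 of 161 antigen receptor segments and 182 of 302 microRNAs, with medians of -0.79, -0.83 and -0.80. Predicted genes had 1783 of 4215 lower and 589 higher. With these classes kept the centring moves, and 2964 of all 15071 genes were lower and 2285 higher. The 8809 genes compared above then had 1587 higher, 473 lower and a median of 0.13. Medians of these classes are therefore not on the scale of the family medians before them. Small nucleolar RNAs had 16 of 42 higher, 5 lower and a median of 0.24. Probe sets of near-identical copies cannot be assigned to 1 gene, and these levels are not read as expression of the named gene. Xdh, xanthine dehydrogenase, belongs to no such family and had 16.80 and 15.67 (-2.18). Bc1, a small cytoplasmic RNA of neurons, had 15.61 and 14.28 (-2.38).

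The age difference in PBS was set beside that in OVA, which used other arrays. Over the 8809 expressed genes the centred differences correlated at r = 0.85 (Pearson) and rho = 0.81 (Spearman). Of the 1020 genes higher in PBS 724 were higher in OVA too, which is 71.0% of the PBS set and 61.9% of the OVA set. Of the 766 lower genes 564 were lower in both, 73.6% of the PBS set and 59.4% of the OVA set. Btg1, an inhibitor of cell proliferation and among the 15 lowest, had 10.77 at P30 and 9.21 at P70 in PBS (-2.21). All 15 genes with the highest PBS difference stood at least 1.5-fold higher in OVA as well. Of the 15 lowest, 14 were lower in OVA. Those not yet described among the highest were Plbd1, a phospholipase B-like protein of granulocytes, with 7.71 and 11.24 (3.0), Mrpl50 of the mitochondrial ribosome, with 7.77 and 10.87 (2.61), and Psmb1 of the proteasome, with 10.92 and 14.42 (2.55). Arrays of the same age may also share collection and processing, which the labels do not tell. A likeness between the pairs therefore does not separate age from these.

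**Figure D5:**
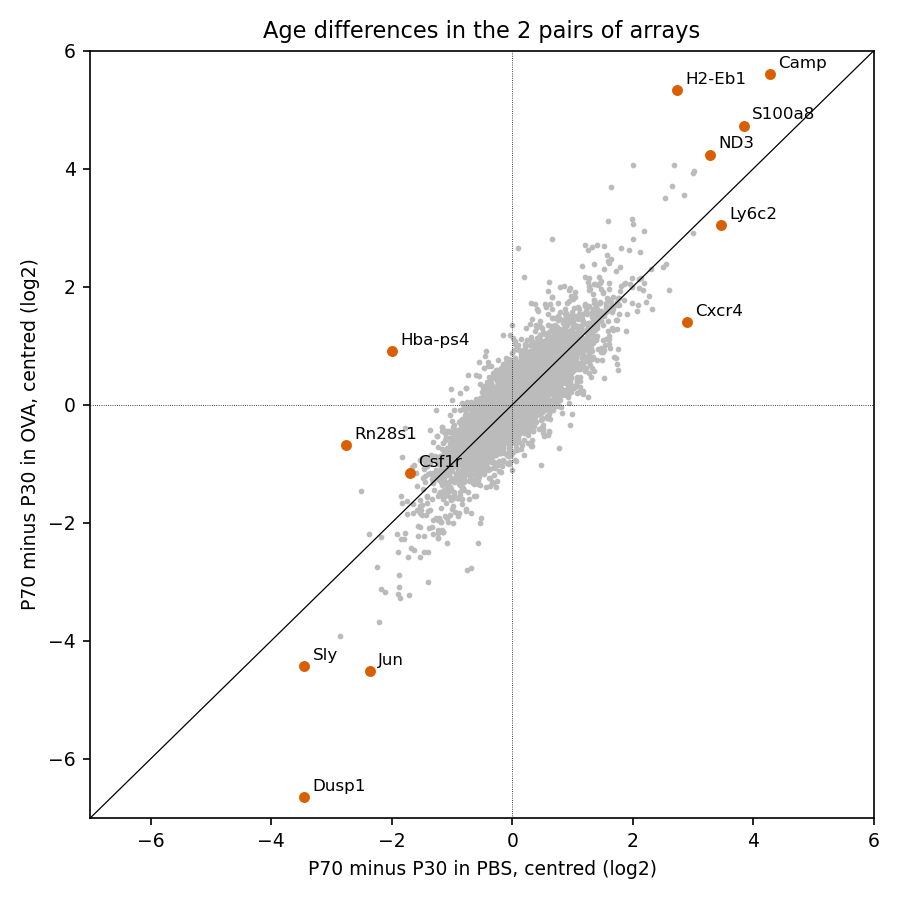
Each point is an expressed gene, with its centred P70 minus P30 difference in PBS (x axis, log2) against that in OVA (y axis, log2); the line marks equal differences. Camp (4.28 in PBS, 5.60 in OVA) and Dusp1 (-3.45, -6.65) lie at opposite ends, and Hba-ps4 (-1.99, 0.91) lies off the cloud.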

How the data were processed

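Per the labels, total RNA was amplified with a WT Pico kit and biotin-labelled. RMA and Affymetrix Expression Console 1.4.1 appear in the submitters' processing notes. The authors deposited 1 linear intensity for every probe set of an array; how arrays were scaled to each other, and the genome build, are not given in the sources used here. Median intensity was 131 at P30 and 111 at P70 in PBS. Log2 values were computed from the deposited intensities. Of 65956 probe sets 30604 had 1 symbol, of which 827 were updated through RefSeq (GRCm38.p6, names alone); 12752 probe sets of predicted genes, small RNAs, receptor families and antigen receptor segments were left out. The brightest probe set stood for a gene (193 genes had several). The difference was centred by lowess (span 0.3, statsmodels 0.14.6, Python 3.11.15), and the procedure was tested on simulated data.

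Genes were named by a rule: those ranked 15 or better at either end of the difference, in each list at most 4 members by size of difference and 2 by level, and defining markers. Ier5, Fos, Btg2, Klf6, Canx and other members outside the rule were named after their values were seen. The members and lists were chosen with earlier results of these data known. Splits by genomic span and by gene family, and the count of genes with the difference of the arrays' highest values, were added after seeing the data. With 1 array per group there were no replicates and no tests; alternatives were other centrings, filters on dim genes, families kept, genes with that difference left out and a 2-fold threshold.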

Additional observations from a re-analysis of the deposited data

Results flagged for a closer look

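Hba-ps4, a pseudogene copy of an alpha-globin gene, stood lower at P70 in PBS and higher in OVA. Its levels were 9.06 at P30 and 7.26 at P70 in PBS, a centred difference of -1.99, and 7.90 at P30 and 9.28 at P70 in OVA, a difference of 0.91. It was singled out because the arrays of the 2 treatments differ in opposite directions. The difference between the treatments was not tested, with 1 array per group. The gene belongs to a family of near-identical globin copies. The erythroid markers Alas2 and Slc4a1 lay under the floor in both PBS arrays. The globin markers Hba-a1 and Hbb-bs were not found, so their levels are not known here. Cstdc6 was the 1 gene past 1.5-fold with the reverse directions, higher at P70 in PBS and lower in OVA.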

How the results depend on the processing

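The count of genes at least 1.5-fold apart in PBS was 1020 higher and 766 lower. With no centring it was 2562 and 257, and with the median alone 1630 higher. It was 2285 and 2964 of 15071 genes when multi-copy classes were kept, and 371 and 240 at 2-fold. Of the 33 lists with 5 or more expressed members 18 had a median above 0, and 29 had with no centring. Among the 184 genes named by rank or list, those past 1.5-fold that changed sign with no centring were Atp5l (0.34), Cebpa (0.0594), COX1 (0.0579), Csf3r (0.0205), Entpd1 (0.32), Hspa8 (0.45), Lgmn (0.23), P2ry13 (0.47) and Trf (0.17), and C1qb, Cst3, Cx3cr1, Selplg and mt-Rnr1 (0.0518 each, the difference of the arrays' highest values). With median centring Atp5l (0.0835), Entpd1 (0.0587), Hspa8 (0.20) and P2ry13 (0.22) did. Genes named outside that set, such as Canx and Fcrls, changed sign with no centring too. Bright named genes that lay under 1.5-fold, such as Maf and Mef2a, also turned. The size of the subtracted shift at each level is the construction behind these. Of the 184 named genes 148 stood at least 1.5-fold apart, and 100 of them did so under each of the 10 alternatives that included them, since the stricter filter leaves out dim ones. No paired analysis was possible because each group had 1 array. Values near the floor of 7.18 or at the upper limit bound what the arrays can show.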
